A study of Mus musculus with 2 samples.

Results

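The 8 mouse genes that encode the troponin subunits of striated muscle were compared in the ear of fetuses null for both Myf5 and Myod1 and in the ear of wild-type fetuses. They were chosen by name, as the T, I and C subunits of the fast skeletal, slow skeletal and cardiac forms, with earlier results of these data known. The gene lists set beside them were chosen with the same knowledge, so the counts below are descriptions and test nothing. Each had 1 probe set that the platform annotation pairs with that gene alone, so 8 of the 35557 probe sets on the array and 8 of its 19938 named genes were used. No probe set listed several genes with a troponin among them. The double-knockout sample was 1 array of fetal ear RNA from BALB/c mice with null alleles of Myf5 and Myod, taken at E18.5. The wild-type sample was 1 array of BALB/c fetal ear RNA of the same age. The labels give neither the number of embryos behind an array nor the part of the ear that was taken, and with 1 array per genotype no difference below has a replicate check or a p-value.

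Troponin is the calcium switch of the thin filament in striated muscle. Troponin C binds calcium, troponin I holds actin and myosin apart while calcium is low, and troponin T ties the complex to tropomyosin along the actin filament. Fast skeletal fibres, slow skeletal fibres and heart muscle use different genes for the subunits, except that slow fibres and heart share 1 troponin C. Fetal skeletal muscle is also known to make the cardiac troponin T for a time, and the fetal heart makes the slow troponin I. Smooth muscle has no troponin. Myf5 and Myod1 encode the DNA-binding factors that start the skeletal muscle programme in precursor cells.

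Signal of 7 of the 8 troponin genes was lower in the double knockout by 2-fold or more, and that of none was higher by as much. The exception was Tnni3, the cardiac troponin I, which lay below the floor set for signal on both arrays. The floor was the median log2 signal of each array, 5.70 in the double knockout and 5.65 in the wild type, and signals below it were raised to it. As background, 12458 genes exceeded the floor on 1 array or on both. Of these, 1.71% were lower in the double knockout by 2-fold or more and 0.482% higher. Among the lower genes, 115 were from the 11626 above the floor on both arrays. The others came from only 450 genes that passed it in the wild type alone. The share of 1.71% pools both kinds, so it understates the background for bounds. The same holds wherever this share is set beside a gene list below. Of the 7 genes, 4 passed the floor only in the wild type, so their direction was given once they passed, and 3 were above it on both arrays. The median over the 7 was a bound of -3.36 on the log2 scale, beside -0.01 over all genes above the floor. With no floor it was -4.05 over the same 7 genes and -3.86 over all 8, beside 0.03 over all 19938 genes, while a 75th percentile floor made it a bound of -1.82. The 213 lower genes made up 78.0% of all genes past 2-fold, and with the arrays set to equal medians of housekeeping genes, which moved the median of all genes to 0.18, there were 171 lower genes, or 59.8%. Under that scaling, too, 7 troponin genes were past 2-fold.

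All 3 fast skeletal subunits were lower. Tnnt3, the fast troponin T, read a log2 signal of 5.90 in the double knockout and 11.69 in the wild type, 55.2-fold lower (probe set 10559221). Tnni2, the fast troponin I, read 5.80 in the double knockout and 11.06 in the wild type, 38.1-fold lower (probe set 10559200). Both were above the floor in the double knockout, but only by 0.20 (Tnnt3) and 0.10 (Tnni2) on the log2 scale. Their folds therefore rest on double-knockout signals near background and are close to bounds. Tnnc2, the fast troponin C, read 4.84 in the double knockout and 10.46 in the wild type (probe set 10489545). Its double-knockout signal was below the floor, which leaves a bound of at least 27.1-fold lower.

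The slow skeletal subunits were all below the floor in the double knockout, and each has only a bound. Tnnt1, the slow troponin T, read 4.71 in the double knockout and 8.15 in the wild type, at least 5.47-fold lower (probe set 10559547). Tnni1, the slow troponin I, read 5.40 in the double knockout and 9.06 in the wild type, at least 10.3-fold lower (probe set 10350149). Tnnc1, the troponin C of slow fibres and heart, read 4.76 in the double knockout and 8.81 in the wild type, at least 8.66-fold lower (probe set 10413726). In all 3 the wild-type signal was well clear of the floor and the double-knockout signal was beneath it.

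Of the cardiac subunits, 1 could be compared. Tnnt2, the cardiac troponin T, read 5.85 in the double knockout and 9.17 in the wild type, 9.96-fold lower (probe set 10350173). Its double-knockout signal was only 0.15 above the floor, so this fold, too, is close to a bound. Tnni3 read 5.64 in the double knockout and 5.29 in the wild type (probe set 10559558), and with both signals below the floor it has no fold. Tnnt2 was lower, as the skeletal subunits were, and Tnni3 could not be placed.

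**Figure D1:**
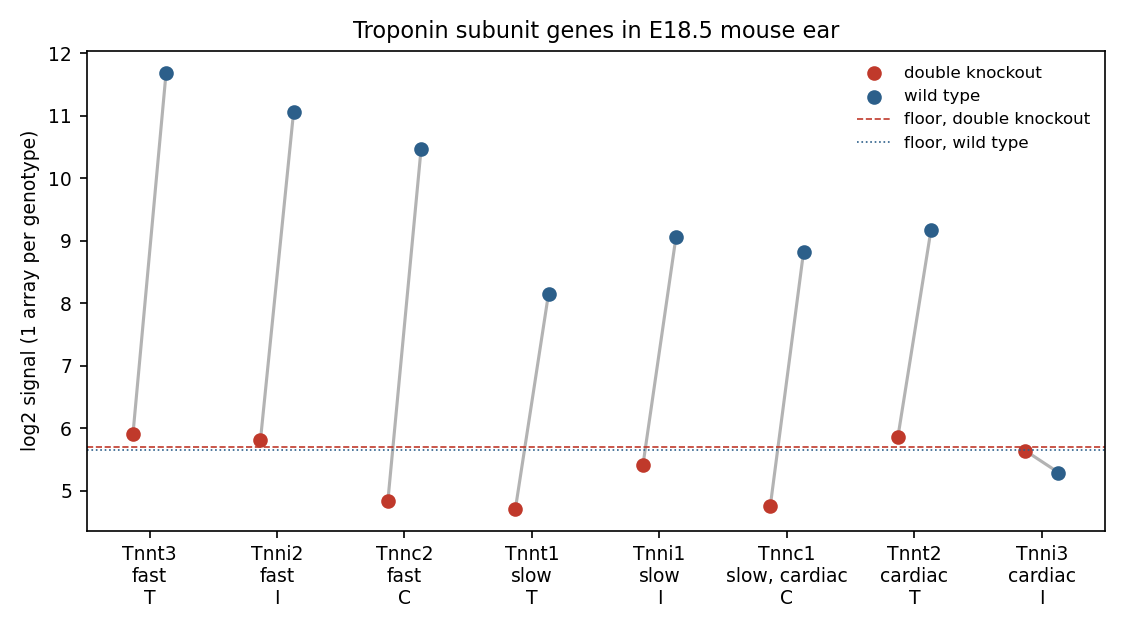
Log2 signal of each troponin gene on the double-knockout array (red, left of each pair) and the wild-type array (blue, right), with each array's floor as a broken line. In the double knockout all 8 signals lie between 4.71 and 5.90, at or near the floor of 5.70, whereas in the wild type 7 of them lie between 8.15 and 11.69.

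Signals of different probe sets do not compare as amounts of RNA, so the differences below are set side by side without ranking the subunits. By role, the T subunits differed by -5.79 (fast), -3.32 (cardiac) and, as a bound, -2.45 (slow). The I subunits differed by -5.25 (fast) and, as a bound, -3.36 (slow), and the C subunits by bounds of -4.76 (fast) and -3.11 (slow and cardiac). In whole-tissue RNA, fewer muscle cells and less troponin RNA per cell cannot be told apart.

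The sizes depend on the floor. With no floor, the deposited signals of the fast subunits differed by -5.79 (Tnnt3), -5.62 (Tnnc2) and -5.25 (Tnni2). Those of the others differed by -4.05 (Tnnc1), -3.66 (Tnni1), -3.44 (Tnnt1) and -3.32 (Tnnt2). With the floor at each array's 75th percentile, all 7 genes are bounds in the double knockout, each of them the wild-type signal less a constant. They ran from -4.34 to -3.11 for the fast genes and from -1.82 to -0.80 for the others, and bounds do not say which gene changed more. The bound of -0.80 for Tnnt1 falls short of 2-fold, so that 6 genes were past it. Neither array has a replicate, and no test of fast against other subunits was possible.

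**Figure D2:**
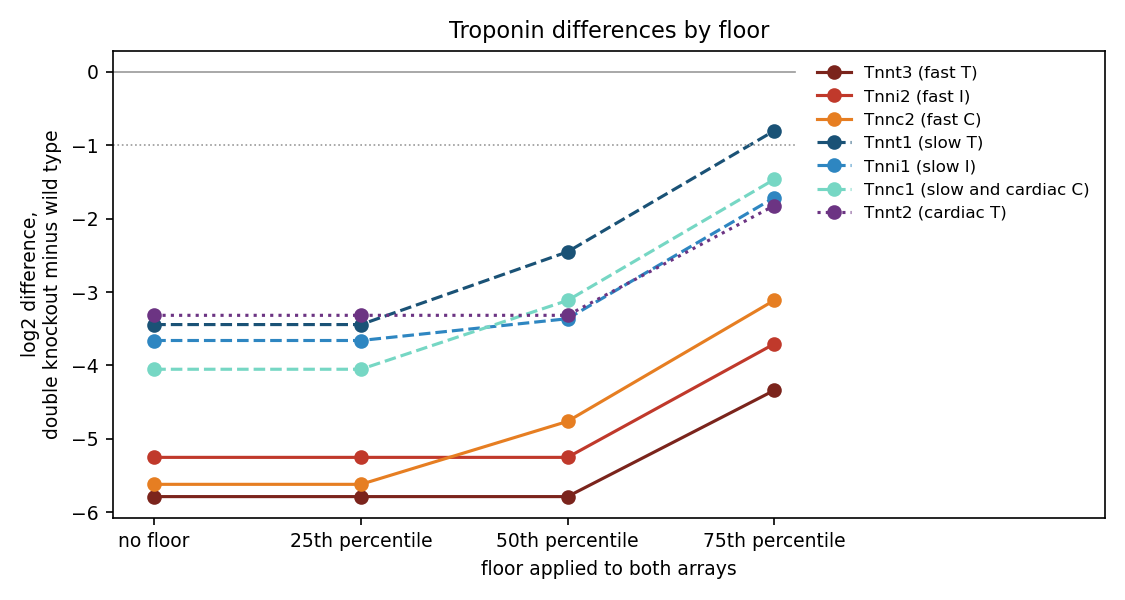
Log2 difference (double knockout minus wild type) of the 7 troponin genes above the floor, with no floor and with the floor at the 25th, 50th and 75th percentile of each array; solid lines mark fast, broken lines slow and the dotted line cardiac subunits. At the 75th percentile all 7 values are bounds and lie nearer to 0 than with no floor (-4.34 against -5.79 for Tnnt3). There the bound for Tnnt1 (-0.80) lies above the dotted line for 2-fold and falls short of it.

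Of 11626 genes measured above the floor in both genotypes, 2 lay further down than Tnnt3. These were Actc1 and Acta1, the sarcomeric actins that troponin regulates. For Tnni2 there were 5 genes further down and for Tnnt2 15. These ranks leave out the 450 genes that passed the floor only in the wild type, so they are minimum counts. Atp2a1, for example, had a bound of -5.48, past Tnni2, and a difference of -6.07 with no floor, past Tnnt3. The genes whose difference was nearest to that of Tnnt3 (-5.79) were Myl1 (-5.60), a light chain of fast myosin, and Ckm (-5.30), the muscle creatine kinase. Ckm and Myl1 were also the nearest to Tnni2 (-5.25). Nearest to Tnnt2 (-3.32) were Srl (-3.31), which encodes the sarcoplasmic reticulum protein sarcalumenin, and Mustn1 (-3.24), a small nuclear protein of muscle and skeleton. This likeness is over 2 arrays only and is a single number per gene. For scale, the differences given by several probe sets of 1 gene had a pooled SD of 0.168 (619 genes), a measure of probe noise that holds no variation between animals.

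**Figure D3:**
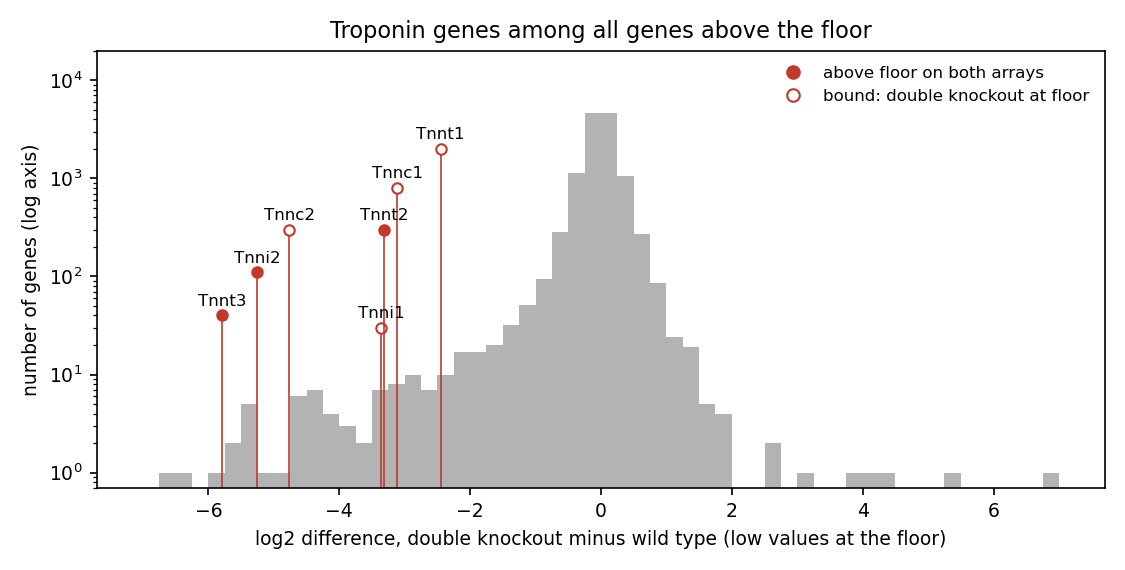
Number of genes (grey, log axis) by log2 difference, double knockout minus wild type, over the 12458 genes that exceed the floor on either array, with the 7 troponin genes marked (filled, above the floor on both arrays; open, a bound). All 7 lie between -5.79 and -2.45, in the sparse left tail of a distribution whose median is -0.01.

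Promoters were examined because MYF5 and MYOD1 bind E-boxes, the motif CANNTG, and 7 of the genes were lower together. RefSeq promoters (build GRCm38.p6, 250 bases before to 50 after a transcript start) were at hand for 6 of the 8 genes, but not for the fast genes Tnnt3 and Tnni2. They made 8 promoters in all, with 2 starts each for Tnni1 and Tnnt2. Those printed show a fast, a slow and a cardiac gene that were lower, the shared troponin C, and Tnni3, which was not above the floor. Capitals mark every match, on either strand, to CANNTG or to CATTCC, the M-CAT motif bound by TEAD factors and first described in the chicken cardiac troponin T promoter; letters run 5′ to 3′ on the gene's strand.
Tnnc2, chr2:164779685-164779984, minus strand: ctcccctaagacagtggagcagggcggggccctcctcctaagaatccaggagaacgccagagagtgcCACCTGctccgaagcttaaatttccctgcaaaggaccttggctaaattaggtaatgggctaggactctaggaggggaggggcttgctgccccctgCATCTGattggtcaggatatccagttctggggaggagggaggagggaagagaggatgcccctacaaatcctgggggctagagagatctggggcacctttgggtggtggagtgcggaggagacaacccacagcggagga
Tnnt1, chr7:4515926-4516225, minus strand: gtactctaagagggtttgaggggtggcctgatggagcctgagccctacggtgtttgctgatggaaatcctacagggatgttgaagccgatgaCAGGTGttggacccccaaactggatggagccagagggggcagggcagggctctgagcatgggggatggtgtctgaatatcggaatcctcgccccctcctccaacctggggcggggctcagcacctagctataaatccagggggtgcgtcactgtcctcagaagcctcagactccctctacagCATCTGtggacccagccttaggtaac
Tnnc1, chr14:31208062-31208361, plus strand: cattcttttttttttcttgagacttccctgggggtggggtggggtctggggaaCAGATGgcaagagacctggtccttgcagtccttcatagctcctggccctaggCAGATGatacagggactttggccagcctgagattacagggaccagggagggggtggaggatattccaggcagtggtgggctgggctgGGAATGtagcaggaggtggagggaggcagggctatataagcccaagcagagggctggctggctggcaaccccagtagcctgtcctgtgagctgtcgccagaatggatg
Tnnt2, chr1:135836084-135836383, plus strand, upstream start: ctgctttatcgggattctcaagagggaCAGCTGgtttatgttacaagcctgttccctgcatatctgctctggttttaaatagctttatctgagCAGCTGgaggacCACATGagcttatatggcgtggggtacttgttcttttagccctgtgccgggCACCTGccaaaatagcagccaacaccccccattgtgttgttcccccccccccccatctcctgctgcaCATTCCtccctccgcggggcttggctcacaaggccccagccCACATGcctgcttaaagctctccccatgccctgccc
Tnni3, chr7:4522479-4522778, minus strand: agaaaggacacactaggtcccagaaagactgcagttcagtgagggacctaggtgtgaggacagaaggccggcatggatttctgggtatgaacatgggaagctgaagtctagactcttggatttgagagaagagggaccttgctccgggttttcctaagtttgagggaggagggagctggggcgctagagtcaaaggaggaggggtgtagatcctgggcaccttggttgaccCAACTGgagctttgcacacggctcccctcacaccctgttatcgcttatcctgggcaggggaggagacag

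CANNTG matched in all 8 promoters of the 6 troponin genes covered, that of Tnni3 included. It also matched in 72.3% of the 32851 promoters in the table, so a match was common everywhere. The Tnnt2 promoter printed above held 5 matches, the Tnnc2, Tnnt1 and Tnnc1 promoters 2 each and the Tnni3 promoter 1, which lies 19 bases before the start. CAGCTG, which is 1 form of CANNTG and so overlaps it, was in 3 of the 8 promoters and in 16.3% of all. Those 3 were both promoters of Tnni1 and the upstream promoter of Tnnt2, which held it at 223 and at 157 bases before the start. The 2 Tnni1 promoters overlap and share the same CAGCTG, at 68 bases before the upstream start and 158 before the other. The motif was therefore found for Tnni1 and Tnnt2 alone, and the count by promoter holds 1 site in duplicate. CATTCC was in 2 of the 8, that of Tnnc1 (58 bases before the start, as GGAATG) and the upstream one of Tnnt2 (27 bases before), and in 14.7% of all. The MEF2 motif and the CArG box matched in 0 of the 8, and in 3.19% and 1.63% of all promoters. A match is a string of letters in this window and was not tested as a binding site.

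The troponin genes lie in the genome mostly as pairs of a T and an I gene. Tnni2 and Tnnt3, both fast, are on chromosome 7 with Lsp1 between them. Tnni1 (slow) and Tnnt2 (cardiac) are on chromosome 1 with Lad1 between them. Tnnt1 (slow) and Tnni3 (cardiac) are next to each other on chromosome 7, and Tnnc2 and Tnnc1 are alone on chromosomes 2 and 14. So 2 of the 3 pairs join genes of different fibre types. Both genes of the Tnni1 and Tnnt2 pair were lower, by a bound of -3.36 and by -3.32, and with no floor by -3.66 and -3.32. In the Tnnt1 and Tnni3 pair only Tnnt1 has a value, a bound of -2.45, since Tnni3 was below the floor on both arrays.

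The chromosomal neighbours of the troponin genes were all within 2-fold where they could be measured. Of the 32 protein-coding genes that are nearest to them, 24 were above the floor and 0 of these were 2-fold lower or higher in the double knockout. Over all genes 2.19% were past 2-fold in either direction, so a count of 0 of 24 is near the background. Lsp1, a leukocyte actin-binding protein, read 7.83 in the double knockout and 8.36 in the wild type, a difference of -0.52, and it lies between genes that were 38.1-fold and 55.2-fold lower. Lad1, the basement membrane protein ladinin, read 6.28 in the double knockout and 5.90 in the wild type, a difference of 0.38. The widest neighbours were Csrp1, a LIM protein of smooth muscle, at -0.68 and Syt5, a synaptotagmin, at 0.74. At a threshold of 1.5-fold, those 2 were past it.

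**Figure D4:**
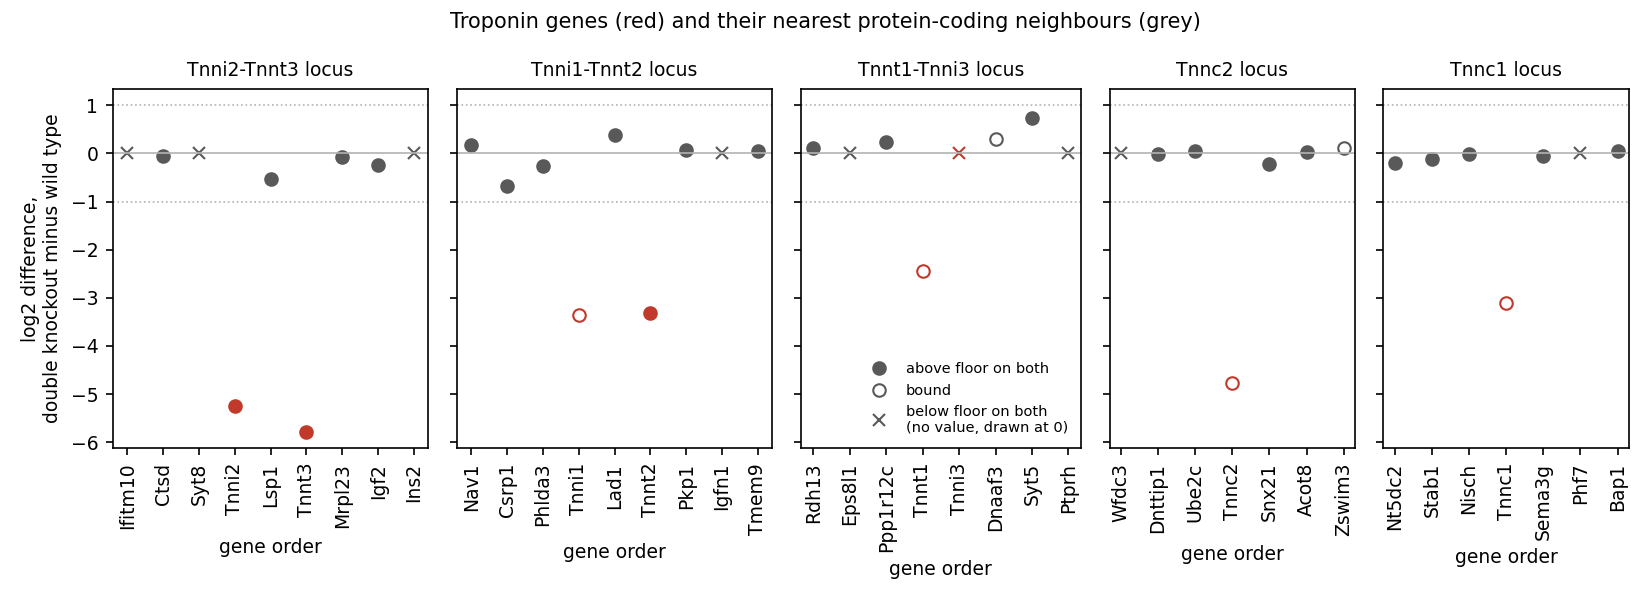
Log2 difference (double knockout minus wild type) of troponin genes (red) and their nearest protein-coding neighbours (grey) in genome order at 5 loci; open circles are bounds, and crosses are genes below the floor on both arrays, which have no difference. Troponin genes lie between -5.79 and -2.45, and the neighbours above the floor between -0.68 and 0.74.

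Genes that work with troponin on the thin filament were lower too. All 11 thin filament partners were past 2-fold in that direction, beside 1.71% of all genes. Of these, 5 passed the floor only in the wild type and are bounds, and 6 were above it on both arrays. The median was -2.87 with bounds at their bound and -3.42 with no floor. Actc1 read 5.84 in the double knockout and 12.38 in the wild type, 93.2-fold lower, and Acta1 was 88.3-fold lower. Neb, the giant protein along the thin filament, was at least 26.7-fold lower. The smallest difference was that of Tpm1, a tropomyosin that non-muscle cells also make, with 9.94 in the double knockout and 11.11 in the wild type, 2.25-fold lower, and it fell short of 2-fold under equal housekeeping medians. Tmod1, which caps the filament's pointed end, had probe sets that disagreed, at -1.64 and 0.34, and was past 2-fold by the brighter one only.

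Of the 11 fast fibre partners, 10 were lower by 2-fold or more, beside 1.71% of all genes, and the other was below the floor on both arrays. Of these 10, 7 passed the floor only in the wild type, which gave them their direction, and 3 were measured on both arrays. The share of all genes understates the background for those 7. The median was -3.50 with bounds at their bound, and -4.65 over all 11 with no floor. Myl1 was 48.5-fold lower and Actn3, the alpha-actinin of fast fibres, 12.2-fold lower. Atp2a1, the fast calcium pump, was at least 44.8-fold lower, and Pvalb, the calcium buffer parvalbumin, was 2.84-fold lower. Myh4, the myosin of the fastest fibres, was below the floor on both arrays, as Tnni3 was.

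Of the 12 genes used by slow fibres and shared in part with heart, 8 were lower by 2-fold or more, beside 1.71% of all genes. Of the others, 2 differed by less and 2 were below the floor on both arrays. Among the 8, 7 passed the floor only in the wild type and are bounds, and Mybpc1 was measured on both arrays. Beside those bounds, too, 1.71% is an understated background. The median was a bound of -2.24 over the 10 genes above the floor, and -2.65 over all 12 with no floor. Mybpc1, a slow myosin-binding protein, was 15.5-fold lower and Casq2, the calsequestrin of slow fibres and heart, at least 16.4-fold. The 2 within 2-fold are made in many other cells as well. Atp2a2, the calcium pump of slow muscle, heart and other tissues, differed by -0.23. Tpm3 differed by 0.05 at its brightest probe set, while its 4 probe sets ranged from -1.60 to 0.08 and the gene has near-identical copies, so its value is uncertain.

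The proteins that release the calcium troponin responds to were lower in part. At the brightest probe set of each gene, 7 of the 11 were lower by 2-fold or more, beside 1.71% of all genes above the floor. All 7 were bounds that passed the floor only in the wild type, and the 4 measured on both arrays differed by less. For those bounds 1.71% is too low a background. Another probe set of Trdn and another of Jph1 were above the floor on both arrays, at -3.25 and -2.01. The median was a bound of -1.18, and -1.52 with no floor. Trdn, the triadin of the junction between the calcium store and the surface membrane, was at least 26.2-fold lower at its brightest probe set, and its dimmest was below the floor on both arrays. Cacnb1 and Cacna2d1, subunits of the muscle calcium channel that are also found in other tissues, differed by -0.87 and -0.84. Jsrp1, a protein of the same junction, read 6.21 in the double knockout and 6.14 in the wild type, both near the floor.

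The thin filament proteins of smooth muscle and of non-muscle cells, which work without troponin, were mostly within 2-fold. Only 1 of 10 was lower by 2-fold or more, and the median was -0.29, beside 1.71% lower among all genes. That gene was Acta2, the smooth muscle actin, with 9.81 in the double knockout and 10.82 in the wild type, 2.02-fold lower. It fell short of 2-fold under equal medians of expressed probe sets, equal housekeeping medians and a pseudocount set at the median signal of the array. Tagln differed by -0.60 and Cnn2, a calponin of non-muscle cells, by -0.03. Among calcium-binding relatives of troponin C and light chains of non-muscle myosin, 0 of 9 above the floor passed 2-fold in either direction and the median was -0.02. With 2.19% of all genes past 2-fold, that count is near the background. Calm2, a calmodulin gene, differed by 0.02, and the myosin light chains Myl12a and Myl9 by -0.59 and -0.58.

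Of the regulators upstream, Myod1 read 6.38 in the double knockout and 6.95 in the wild type, 1.49-fold lower, and Myf5 read 5.25 in the double knockout and 5.94 in the wild type, at least 1.18-fold lower. The position of these probe sets relative to the deletions was not analysed here, so the signals are no check of the genotypes. Myf6 was at least 5.05-fold lower and Myog at least 2.51-fold, and both passed the floor only in the wild type, which gave them their direction. With Mef2c, 2.06-fold lower, these were the 3 of 10 regulators above the floor that passed 2-fold, beside 1.71% lower among all genes. That share understates the background for the bounds of Myf6 and Myog. Mef2c fell short of it under quantile normalization, equal housekeeping medians and the pseudocount, which left 2 regulators. Tead4, one of the factors that bind the M-CAT motif, differed by -0.85 and Six4 by -0.02.

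**Figure D5:**
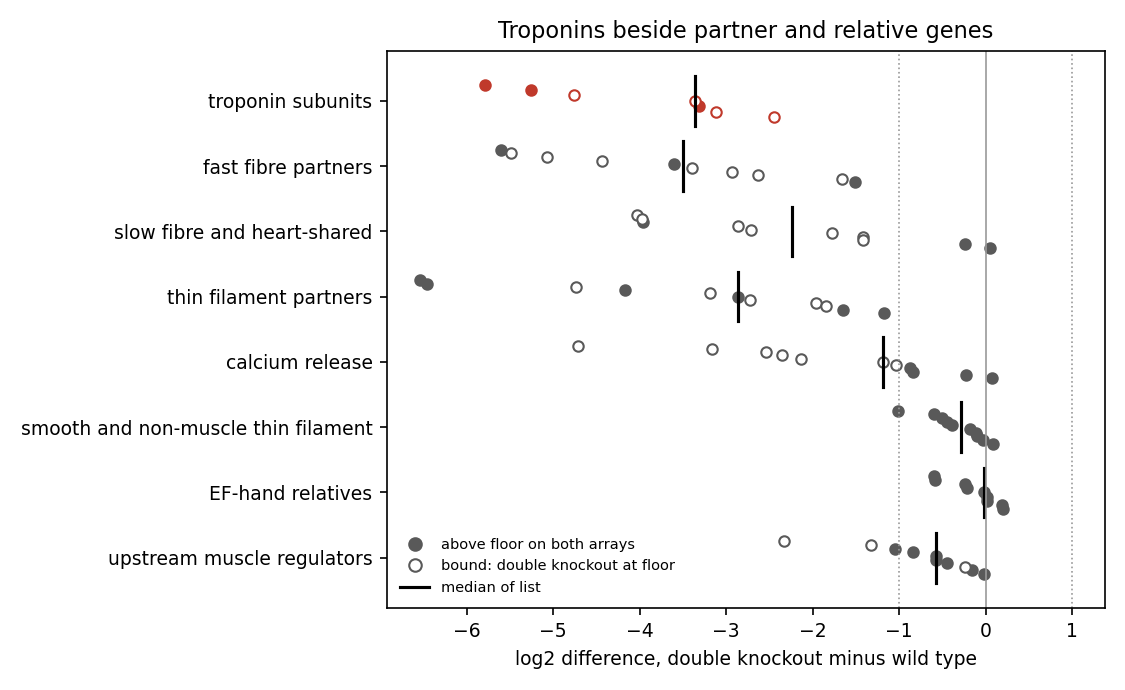
Log2 difference (double knockout minus wild type) of each gene above the floor in the troponin family (red, top) and in 7 related lists (grey); filled circles are above the floor on both arrays, open circles are bounds, bars are list medians with bounds at their bound, and dotted lines mark 2-fold. Medians run from -3.36 for the troponins and -3.50 for fast fibre partners to -0.29 for smooth and non-muscle thin filament genes and -0.02 for calcium-binding relatives.

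Defining markers of heart muscle were checked because Tnnt2 and Tnnc1 are also heart genes. Of the 12 heart markers, 7 were below the floor on both arrays, beside 7480 of all 19938 genes. Among the 7 were Myh6, Myl7, Nppa and Mybpc3. Of the 12, 3 were above the floor in the double knockout and 5 in the wild type. Their summed linear signal was 504 in the double knockout and 2417 in the wild type, and Myl4, which fetal skeletal muscle also makes, accounted for nearly all of the difference. Without Myl4, a split made after the values were seen, the sums were 419 in the double knockout and 440 in the wild type. Of those 11 markers, 7 were below the floor on both arrays. Both sums therefore hold much background signal, and their closeness does not measure heart muscle content. Ear markers were above the floor on both arrays in 9 of 9 genes, beside 11626 of all 19938 genes. Their differences ran from -0.19 to 0.33. Only 2.19% of all genes above the floor were past 2-fold, so differences of this size are common. Markers of other tissues also differed between the arrays. The 6 salivary gland markers were all higher in the double knockout by 2-fold or more, beside 0.482% of all genes above the floor. Their summed linear signals were 10363 in the double knockout and 90.02 in the wild type. Of the 6, 0 were above the floor in the wild type, which gave them their direction. The 4 brain markers were all higher by 2-fold or more as well, beside the same 0.482%. Their sums were 801 in the double knockout and 286 in the wild type. Of these 4, 2 were above the floor in the wild type, and the others passed it only in the double knockout. Part of the wild-type sum is therefore background. Both marker sets were chosen with earlier results of these data known, so these counts test nothing. The part of these markers in the troponin differences was not tested.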

How the data were processed

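Total RNA of fetal ear was hybridised to 2 Affymetrix arrays, 1 per genotype. The authors deposited 1 log2 signal per probe set, and MAS5 is named, with no version, in the submitters' processing notes. Background correction, scaling and the array's genome build are not stated. The base 2 was inferred from the values, which end at 13.26 in the double knockout and 13.27 in the wild type.

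Of the probe sets, 21789 have 1 gene in the platform annotation and 1621 several. The brightest probe set stood for a gene, and signals under each array's 50th percentile were raised to it before double knockout minus wild type was taken. With 1 array per group there is no test, and the number of arrays limits precision. Named genes were the members, Myf5, Myod1, Myog and Myf6, the nearest 3 protein-coding genes on each side of a troponin gene or pair, the 2 genes nearest in difference to a member, and in each list the 2 largest and the smallest measured differences and the largest bound. Tmod1, Myh4 and single markers were named after their values were seen. Members, lists and settings were chosen with earlier results of these data known. The calculation was checked on simulated data, in which the shifted genes were bright enough to stay above the floor. That check therefore did not cover the rule for bounds. Names, gene order and promoters came from RefSeq tables for GRCm38.p6. Tools were Python 3.11.15, pandas 2.3.3, numpy 2.4.6, statsmodels 0.14.6 and matplotlib 3.10.9. Alternatives were 5 scalings, other floors, a pseudocount, other choices of probe set and other thresholds.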

Additional observations from a re-analysis of the deposited data

How the results depend on the processing

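The 7 troponin differences kept their direction under the 11 alternatives that recompute them. Over all 13, the other 2 being thresholds, the 7 genes were past the threshold except with the floor at the 75th percentile, where Tnnt1 was not. The median and the dimmest probe set could change nothing, because each troponin gene has 1 probe set. Where a floor was applied, the direction of a bound was given once its gene passed in the wild type. A difference counts here as moved when it shifts by more than the probe set standard deviation of 0.168. Of 35 values of single troponin genes under the 5 scalings, 7 moved, all under equal housekeeping medians and by 0.181. They were -5.61 for Tnnt3, -5.07 for Tnni2, -4.58 for Tnnc2, -2.27 for Tnnt1, -3.18 for Tnni1 and for the median of the family, -2.93 for Tnnc1 and -3.14 for Tnnt2. With the floor at the 25th percentile or with none, the bounds became differences of -5.62 for Tnnc2, -3.44 for Tnnt1, -3.66 for Tnni1 and -4.05 for Tnnc1, and the family median was -3.86. At these floors Tnni3 had a difference of 0.35, and it entered that median. Raising the floor to the 75th percentile gave bounds of -4.34 for Tnnt3, -3.71 for Tnni2, -3.11 for Tnnc2, -0.80 for Tnnt1, -1.71 for Tnni1, -1.46 for Tnnc1 and -1.82 for Tnnt2 and for the median. With the median signal of an array added to its values, the differences were -4.91 for Tnnt3, -4.34 for Tnni2, -4.18 for Tnnc2, -2.10 for Tnnt1, -2.63 for Tnni1, -2.66 for Tnnc1 and -2.51 for Tnnt2, with a median of -2.65. These shifts follow from the construction of each setting.

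A count moved where the larger of the reported and the alternative count was over 1.5 times the smaller, or where 1 of them was 0. Over all genes 111 were lower with the floor at the 75th percentile, 451 at a threshold of 1.5-fold and 120 at 3-fold. At that 75th percentile floor, 5 slow fibre genes, 2 calcium release genes and 1 upstream regulator were lower. In the smooth and non-muscle list 0 genes were lower under equal medians of expressed probe sets, equal housekeeping medians, the pseudocount and the 3-fold threshold, and 2 at 1.5-fold. At 1.5-fold 1 calcium-binding relative was lower, and at 3-fold 1 upstream regulator was. Smaller changes included 7 fast fibre and 9 thin filament genes at the 75th percentile floor, 5 calcium release genes with the pseudocount or the dimmest probe set, and 2 regulators under quantile normalization, equal housekeeping medians and the pseudocount. At 1.5-fold 2 chromosomal neighbours were past the threshold, and 0 under the other 12 alternatives. No paired analysis was possible because each genotype has 1 array. Signal near background limits every value below the floor and those just above it.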
